A study of Drosophila melanogaster with 3 samples.

Results

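The insulin and TOR pathway genes examined here were InR, chico, Pi3K92E, Akt, foxo, Tsc1, gig, Rheb and Tor, 9 of the 13968 protein-coding genes annotated on the 7 chromosome arms. They were chosen by name as core components of the pathway and not by a measured value, although earlier results of these data were known at the time. The peaks came from chromatin immunoprecipitation followed by sequencing (ChIP-seq) of Row, a zinc-finger protein associated with heterochromatin protein 1c. Whole Drosophila melanogaster embryos aged 0 to 24 h were used, all from 1 transgenic strain that carries row fused to the gene of enhanced green fluorescent protein (eGFP). An anti-GFP antibody was used on chromatin sonicated to 200 to 800 bp, in 3 biological replicates of a single group. No condition, mutant or untagged embryo was compared. Whole embryos mix all tissues and ages, so strong enrichment in a few cells and weak enrichment in many cannot be told apart.

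Insulin-like peptides bind the receptor InR, and the substrate chico passes the signal to the lipid kinase Pi3K92E, which recruits the kinase Akt to the membrane. Akt keeps the transcription factor foxo out of the nucleus and restrains the Tsc1 and gig complex, the inhibitor of the small GTPase Rheb, which activates the kinase Tor. In flies the pathway couples nutrition to cell growth, body size and metabolism, and foxo in turn activates transcription of InR when signalling is low.

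A gene was counted as carrying a promoter summit when the highest point of a peak lay within 500 bp of one of its transcription start sites (TSSs), and as carrying a gene body summit when that point lay between its ends. The main list is the conservative list of 10483 peaks that the authors made from replicates 1 and 2 at an irreproducible discovery rate (IDR, an estimate of the share of peaks that would fail to recur between replicates) of 0.01. Its signal values, the peaks' enrichment as the authors' caller gave it, are those of a pool and have a median of 280.1. Replicates 1, 2 and 3 listed 10959, 8567 and 7635 peaks of their own at that threshold. The files give no read numbers and the depth is unknown. Signal values are compared only within a list or after division by the list's median.

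In the conservative list, 4 of the 9 genes (44.4%) carried a promoter summit, against 36.4% of all protein-coding genes. They were Akt, foxo, Rheb and Tor. InR, chico, Pi3K92E, Tsc1 and gig carried none. Replicate 1 listed a promoter summit for 6 of the 9, against 40.3% of all genes, and added InR and chico. Replicate 2 listed the same 4 as the conservative list, against 32% of all genes. Replicate 3 listed 5, the same 4 and InR, against 32.8% of all genes. Tsc1 and gig had a promoter summit in none of these lists. In the ranked list of replicates 1 and 2, which has no threshold, 6 of the 9 had one, the same 4 with InR and Tsc1, against 56.9% of all genes. A gene body summit was present at InR, foxo and Pi3K92E, 3 of the 9, against 19.2% of all genes, and the same 3 genes had one in each replicate.

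**Figure D1:**
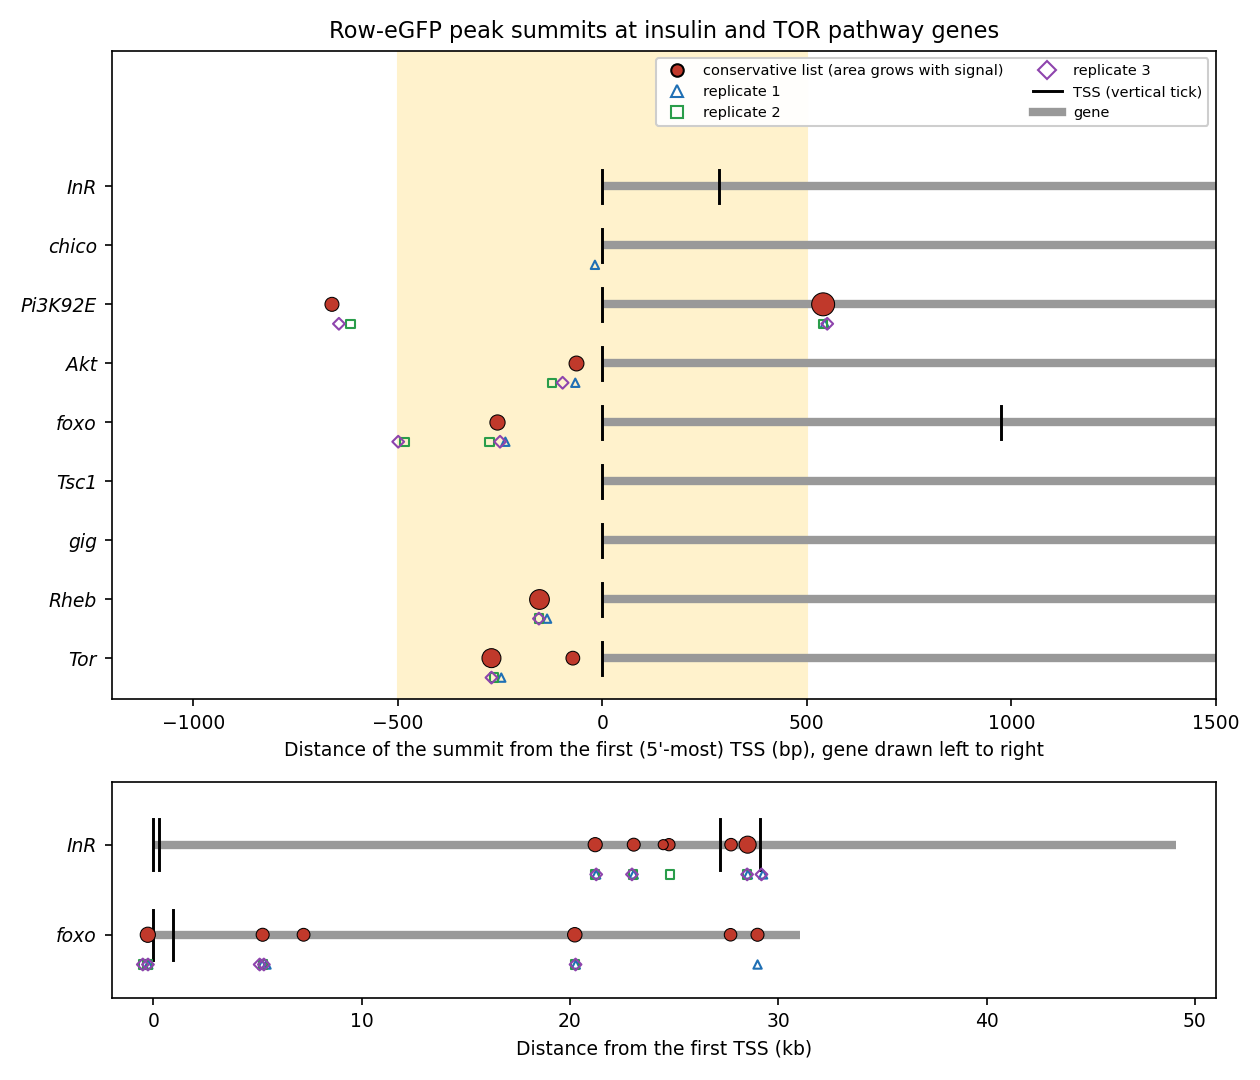
Positions of peak summits at the 9 genes as distance from the first TSS in bp (upper panel) or kb (lower panel, InR and foxo whole), with each gene drawn left to right. Red circles are summits of the conservative list with area growing with signal, open symbols are summits of the 3 replicates' own lists, vertical ticks are TSSs, and the shaded band is 500 bp on each side of the first TSS. Rheb, Tor, Akt and foxo have red circles inside the band, the circle of Pi3K92E lies 540 bp inside its gene, and the summits of InR and foxo in the lower panel lie far from the first TSS.

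Both gene length and promoter arrangement differ among the members. InR spans 49074 bp and foxo 31034 bp, whereas the median protein-coding gene spans 2164 bp. Of genes over 20 kb, 71.3% carried a gene body summit, and both long members did. Of genes of 20 kb or less, 15.1% did, and Pi3K92E was the 1 of 7 such members. Akt, Tsc1, Rheb and Tor each have a neighbour transcribed away from them whose TSS lies within 500 bp upstream, at 467 bp for Akt (Mhcl), 52 bp for Tsc1 (GatB), 306 bp for Rheb (CG2931) and 373 bp for Tor (Vha68-1). Among all genes with such a divergent neighbour 66% carried a promoter summit, and among these members 3 of 4 did. Among genes without one 25.3% did, and among these members 1 of 5, foxo.

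InR, the insulin receptor, lies at chr3R:21570248-21619321 on the minus strand (dm6) and has 4 TSSs, of which 2 are at its 5′ end and 2 well inside the gene. All 6 of its summits in the conservative list were intronic and lay around the downstream TSSs. The strongest stood 598 bp upstream of the innermost TSS, just outside the window, with a signal of 650 at rank 2229. Its signal was 203 in replicate 1, 277 in replicate 2 and 200 in replicate 3, which is 1.99 ± 0.282 times the list median (SD, n = 3). All 3 replicates placed it above their median peak.

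The other 5 intronic summits of InR were weaker, with signals of 250, 151, 125, 110 and 27.9. Those of 250 and 151, which stood 5985 and 4135 bp upstream of the nearest TSS, were listed by all 3 replicates at 0.745 ± 0.164 and 0.452 ± 0.0908 times the median (SD, n = 3). The summit of 110 was listed by replicate 2 alone at the threshold. Those of 125 and 27.9 were listed by no replicate at that threshold. That of 125 stood 535 bp downstream of a TSS, again just outside the window. The summits of 110 and 27.9 also lay within lncRNA:Irar, a non-coding RNA gene inside InR.

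The summits nearest to a TSS of InR were less uniform between the lists. One stood 104 bp downstream of the innermost TSS with a signal of 257.5 in the pool. Replicate 1 listed it at 127 and replicate 3 at 72.9, while in replicate 2 it was found at 34.1 in the ranked list alone. It passed the threshold in the list of replicates 1 and 3 and in the pooled list, but not in the conservative list, where its −log10 IDR was 1.13.

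The second stood 82 bp upstream of the first TSS, with a signal of 207.5 at rank 6898 of the 46604 peaks ranked for replicates 1 and 2. Its −log10 IDR was 3.01 there, above the value of 2 that marks the threshold, and yet it was in no thresholded list. In the replicates' ranked lists its signal was 104, 61.3 and 43.1. It was not alone in this. Of the 10 ranked summits of InR past the threshold for replicates 1 and 2, 4 were missing from the conservative list, and their summits were chr3R 21619403, 21615029, 21613061 and 21608815. The strongest of them, at 21613061, had a −log10 IDR of 4.61 and a signal of 667 in the pool. The strongest summit of InR that was kept had 650 there. In replicates 1, 2 and 3 the missing summit was the lower one, at 196, 268 and 192 against 203, 277 and 200. The summits missing from the 7 thresholded lists, between 2 per list in replicates 2 and 3 and 8 in the pooled list, all lay between 21606890 and 21619403, from the 5′-most part of InR to 82 bp upstream of its first TSS. The search covered each gene and 500 bp upstream of it, and there none of the other 8 genes lacked such a summit in any of the 7 lists. Within 25 kb, the conservative list also lacked a peak at chr3R 21633284, upstream of InR, with a signal of 520.2 and a −log10 IDR of 4.17. Another, at chr3R 24109196 upstream of Tsc1, had a signal of 4418 and a −log10 IDR of 5. Over the 7 arms, 174 ranked peaks past the threshold were absent from the conservative list. The deposited notes name a further input of the thresholded lists that was not analysed here, and its part in these absences was not tested. The count of InR among genes without a promoter summit in the conservative list therefore depends on which list is read.

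**Figure D2:**
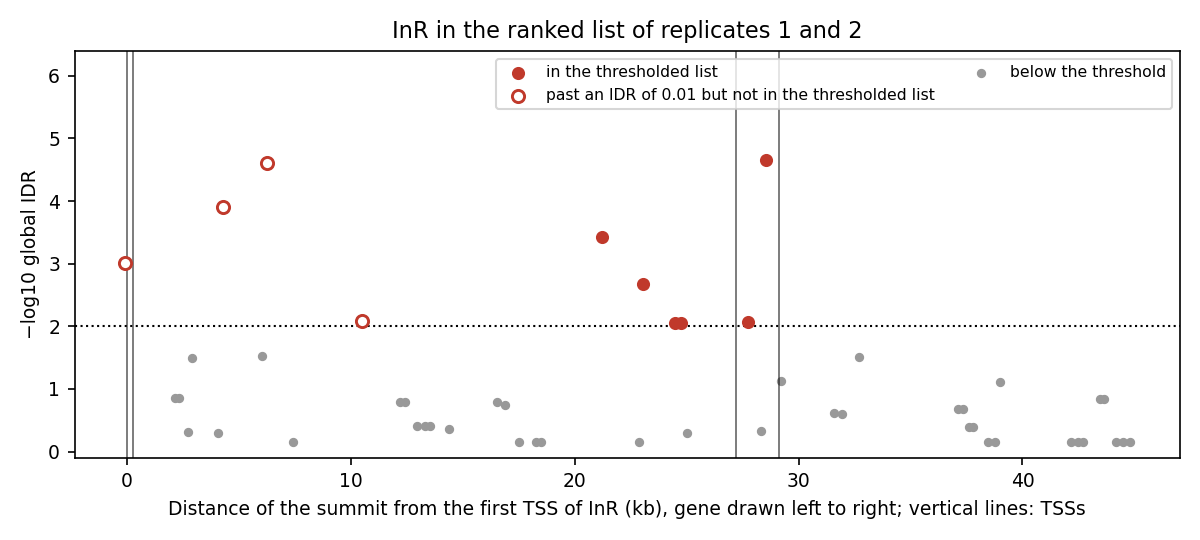
Summits of the ranked list of replicates 1 and 2 in and just upstream of InR, by distance from the first TSS (kb, x axis) and −log10 global IDR (y axis). Filled red circles are in the thresholded list, open red circles pass an IDR of 0.01 (dotted line at 2) without being in it, grey points fall below the line, and vertical lines are the 4 TSSs. Of the 4 open circles, 1 lies 82 bp upstream of the first TSS and 3 in the first stretch of the gene, and the 6 filled ones lie nearer to the downstream TSSs.

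chico, the insulin receptor substrate, lies at chr2L:10242512-10247078 on the minus strand and has 1 TSS. It carried a promoter summit in replicate 1 alone, 18 bp upstream of the TSS, with a signal of 117 at rank 4730 of 10959. Replicates 2 and 3 had no promoter summit there, even in their ranked lists of 29028 and 29654 peaks. The ranked lists of the 3 replicate pairs had none either. The pooled list placed a summit 38 bp upstream with a signal of 211 at rank 6780 of 13292. Of the single replicates, replicate 1 alone showed it.

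Pi3K92E, the catalytic subunit of the class I phosphatidylinositol 3-kinase, lies at chr3R:20628972-20634732 on the minus strand. It had the strongest summit of all 9 genes. This summit stood 540 bp downstream of the TSS, just outside the promoter window, in a stretch annotated as 5′ UTR. Its signal was 2563 at rank 195, higher than 96.7% of the 4541 promoter summits. The signal was 922 in replicate 1, 856 in replicate 2 and 795 in replicate 3, at ranks 162, 231 and 203. In each replicate it was the highest of the summits listed in all 3 replicates at these genes, 7.62 ± 1.38 times the list median (SD, n = 3). Its sequence is not shown because it lies in an annotated UTR. A second peak 661 bp upstream of the TSS, with a signal of 236, lay closer to Lrrk, which encodes a leucine-rich repeat kinase, at 87 bp from its TSS.

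Akt, the kinase that carries the signal from the lipid messenger, lies at chr3R:16099228-16105670 on the plus strand. Its summit stood 65 bp upstream of the first TSS with a signal of 328 at rank 4570, and 43.3% of promoter summits were lower. The signal was 82.9 in replicate 1, 89.5 in replicate 2 and 127 in replicate 3, which is 0.875 ± 0.177 times the list median (SD, n = 3). Replicate 3 placed it slightly above its median and the other replicates below theirs. At its second TSS only ranked peaks below the threshold were found, the strongest with a signal of 63.2 and a −log10 IDR of 1.1.

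foxo, the forkhead transcription factor that Akt restrains, lies at chr3R:14056945-14087978 on the plus strand. Its promoter summit stood 258 bp upstream of the first TSS with a signal of 365 at rank 4151. The replicates gave 113, 117 and 107, or 0.993 ± 0.121 times the list median (SD, n = 3), so this was a peak of middle strength in each. A second upstream summit at 487 bp, with a signal of 370.6, was in the pooled list and in those of replicates 2 and 3, at 118 and 128, and was not listed in replicate 1. It lay just inside the window, at 484 bp in replicate 2 and 499 bp in replicate 3.

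Inside foxo, 5 intronic summits were listed in the conservative list, with signals between 126 and 277. The strongest, 19262 bp downstream of the second TSS at rank 5298, gave 87.4, 113 and 82.8 in the replicates, or 0.83 ± 0.116 times the median (SD, n = 3). The one 4280 bp downstream was the only other intronic summit listed in all 3 replicates, at 0.413 ± 0.17 times the median. Replicate 3 listed 2 summits within 150 bp of it. The nearer, at 0.224 times the median, was used, and the other stood at 0.385. In no replicate was an intronic summit of foxo stronger than the promoter summit.

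Tsc1, a scaffold subunit of the complex that inhibits Rheb, lies at chr3R:24130307-24134654 on the plus strand. Its start is 52 bp from that of GatB, a subunit of the mitochondrial glutamyl-tRNA amidotransferase. No thresholded list held a summit in its promoter or body. The ranked list of replicates 1 and 2 held a summit 91 bp upstream, within GatB, with a signal of 49.7 and a −log10 IDR of 0.312, and another 173 bp downstream with a signal of 29. None of the 3 replicates' ranked lists held a promoter summit of Tsc1. It was thus the member with a divergent promoter and no summit past the threshold.

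gig, the fly TSC2 and partner of Tsc1, lies at chr3L:20129181-20139010 on the plus strand. No list, thresholded or ranked, held a promoter summit of gig. The ranked lists of replicates 2 and 3 held 2 summits each inside the gene, with signals of at most 28.4, and those of replicate 1, of the pairs and of the pool held none. At unknown depth, this says that no enrichment was detected there, not that it was absent.

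Rheb, the GTPase that activates TOR complex 1, lies at chr3R:5568921-5570491 on the plus strand. It had the strongest promoter summit of the 9 genes, 155 bp upstream of the TSS with a signal of 1296 at rank 772, and 87.5% of promoter summits were lower. The signal was 471 in replicate 1, 400 in replicate 2 and 438 in replicate 3, at ranks 698, 954 and 682, which is 3.89 ± 0.748 times the list median (SD, n = 3). The summit lay almost midway between the starts of Rheb and CG2931, at 151 bp from the latter, and would go to CG2931 if each summit were given to its nearest gene alone. Of the 3984 genes with a promoter summit in all 3 replicates, those nearest to Rheb by rank percentile over the 3 lists were CG2931, which shares the same summits, CG3434 at a distance of 0.86 percentile points, and then THG, which encodes a tRNA-histidine guanylyltransferase, and Rnmt, with the same percentiles as each other, at 1.3, a distance that CG7627 and muskelin also had after rounding. This is a likeness in strength alone.

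Tor, the kinase at the end of the chain, lies at chr2L:13004480-13013197 on the plus strand. The stronger of its promoter summits stood 271 bp upstream with a signal of 1079 at rank 1064, higher than 83% of promoter summits. The replicates gave 283, 385 and 413 at ranks 1669, 1019 and 773, or 3.15 ± 0.331 times the list median (SD, n = 3). It was 102 bp from the start of Vha68-1, which encodes a subunit of the vacuolar proton pump. A weaker summit 72 bp upstream of Tor, with a signal of 214 at rank 6534, was nearest to Tor itself. No replicate listed the weaker one at the threshold, and the ranked lists of replicates 1 and 3 alone held it, at 75.7 and 42.2.

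Ordered by signal over the list median, the members' strongest summits fell into steps. Only conservative-list summits that all 3 replicates listed were ordered. This leaves out chico and the foxo summit at 487 bp, which was higher than that at 258 bp in replicates 2 and 3. It also leaves out the ranked InR summit at 21613061, which the conservative list lacks. Pi3K92E, with values of 6.71 to 9.21, did not overlap Rheb, with 3.25 to 4.71. Rheb and Tor, with 2.83 to 3.49 for Tor, overlapped, although Rheb was the higher of them in each replicate. InR, with 1.69 to 2.25, lay below Tor and above foxo without overlap. The promoter summits of foxo, with 0.902 to 1.13, and Akt, with 0.726 to 1.07, overlapped. The mean rank percentile over the replicates' lists was 97.7 ± 0.691 for Pi3K92E, 91.2 ± 2.38 for Rheb, 87.6 ± 2.59 for Tor, 75.8 ± 4.98 for InR, 49.3 ± 5.61 for foxo and 42.2 ± 9.83 for Akt (SD, n = 3). These are comparisons of ranges, and no test was run on them.

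**Figure D3:**
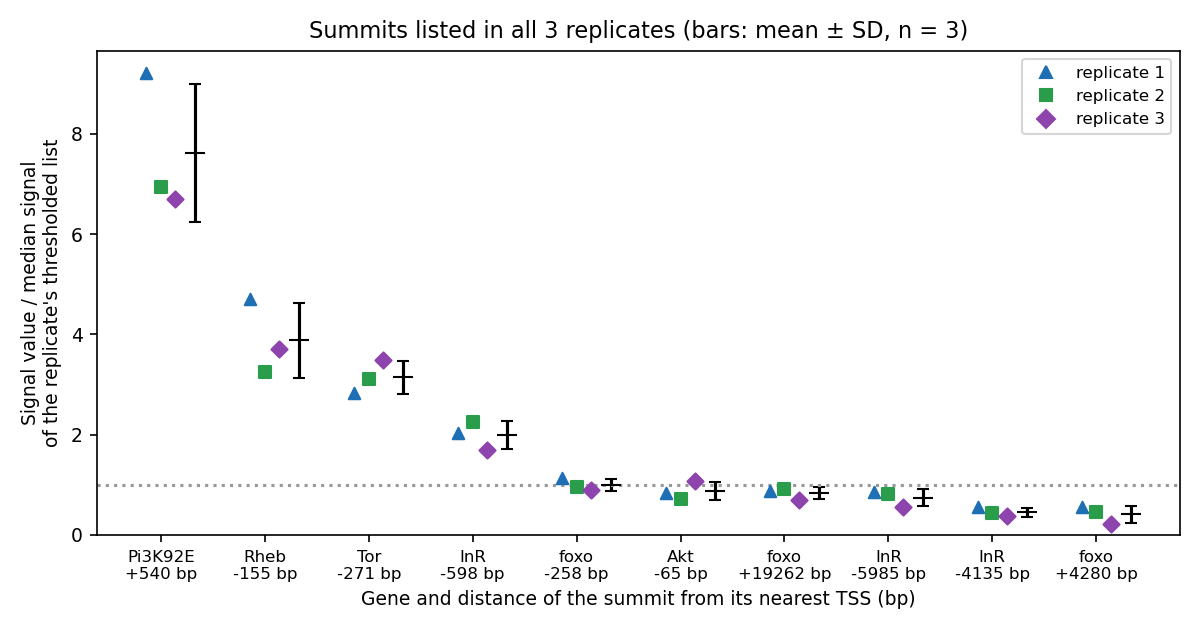
Signal value divided by the median signal of the replicate's own thresholded list (y axis) for the 10 conservative-list summits of these genes that all 3 replicates listed (x axis, with the distance in bp from the nearest TSS, negative upstream). Symbols are replicates, bars are mean ± SD (n = 3), and the dotted line is the median peak. Pi3K92E stands above all others, Rheb and Tor overlap, and the intronic summits of foxo and the distant ones of InR lie below the line.

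**Figure D4:**
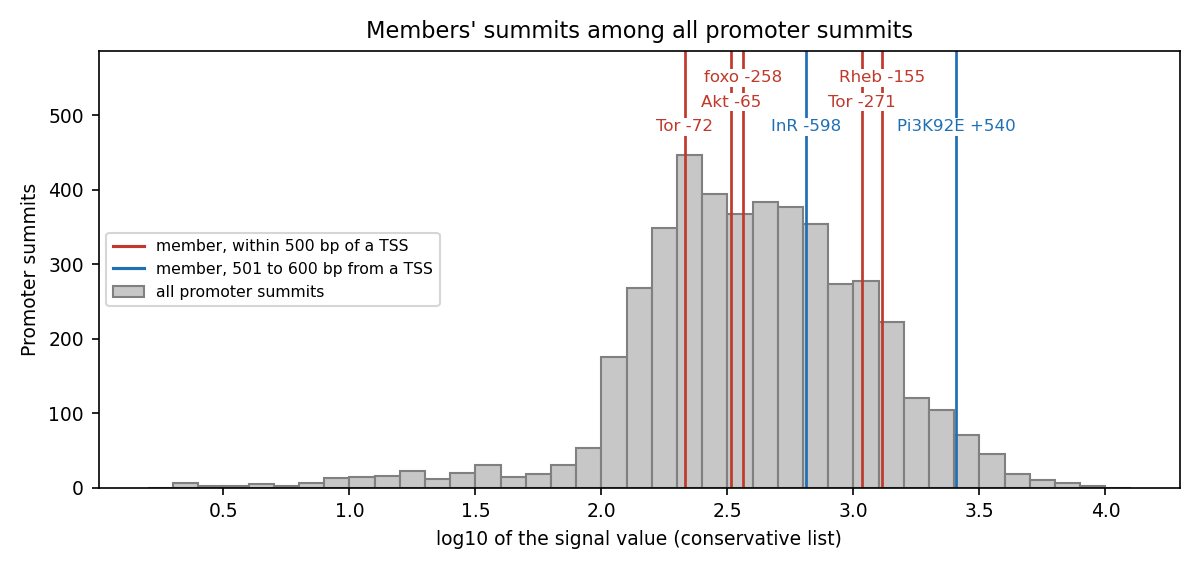
Histogram of log10 signal values of the 4541 promoter summits of the conservative list (grey, y axis in summits) with members' summits as vertical lines. Red lines lie within 500 bp of a TSS and blue lines, for Pi3K92E and InR, at 540 and 598 bp from one. Rheb and Tor lie in the upper part of the distribution, foxo and Akt near its middle, and the summit of Pi3K92E in its upper tail.

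The sequences below are those around promoter summits that at least 1 replicate listed at the threshold. These are where the protein was enriched nearest to the starts of the genes. The strongest intronic summit of InR in the conservative list is shown with them. The promoter summit 104 bp downstream of a TSS of InR lies in an annotated 5′ UTR and is not shown. They were taken from the RefSeq dm6 sequence, 100 bp on each side of the summit as far as no exon was reached, and are written 5′ to 3′ on the strand of the gene. Capitals mark CGATA, the core of sites bound by the insulator protein BEAF-32, GAGAG, the GAGA element, TATAAA, the TATA box, and the E-box form CAGCTG, on either strand.
Rheb, 155 bp upstream (chr3R:5568666-5568866, plus strand): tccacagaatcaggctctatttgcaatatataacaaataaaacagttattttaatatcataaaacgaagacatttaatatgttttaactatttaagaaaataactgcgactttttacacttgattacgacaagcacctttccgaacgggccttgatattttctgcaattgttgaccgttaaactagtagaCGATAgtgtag
Tor, 271 bp upstream (chr2L:13004109-13004309, plus strand): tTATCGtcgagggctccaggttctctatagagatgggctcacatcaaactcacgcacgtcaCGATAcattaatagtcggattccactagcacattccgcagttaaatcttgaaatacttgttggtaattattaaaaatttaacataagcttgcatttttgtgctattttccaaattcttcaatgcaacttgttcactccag
Akt, 65 bp upstream (chr3R:16099063-16099227, plus strand): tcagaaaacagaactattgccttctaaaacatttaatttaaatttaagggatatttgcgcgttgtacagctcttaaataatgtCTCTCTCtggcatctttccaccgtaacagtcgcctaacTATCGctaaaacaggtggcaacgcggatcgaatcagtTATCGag
foxo, 258 bp upstream (chr3R:14056587-14056787, plus strand): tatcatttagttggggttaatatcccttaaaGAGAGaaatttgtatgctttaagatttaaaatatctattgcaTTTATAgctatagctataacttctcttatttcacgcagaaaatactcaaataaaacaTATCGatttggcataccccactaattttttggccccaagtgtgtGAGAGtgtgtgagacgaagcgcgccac
foxo, 487 bp upstream, pooled list (chr3R:14056358-14056558, plus strand): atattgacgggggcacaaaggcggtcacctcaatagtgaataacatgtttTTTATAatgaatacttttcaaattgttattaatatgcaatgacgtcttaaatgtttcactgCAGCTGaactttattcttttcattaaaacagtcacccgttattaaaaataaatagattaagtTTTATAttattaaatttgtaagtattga
chico, 38 bp upstream, pooled list (chr2L:10247079-10247216, minus strand): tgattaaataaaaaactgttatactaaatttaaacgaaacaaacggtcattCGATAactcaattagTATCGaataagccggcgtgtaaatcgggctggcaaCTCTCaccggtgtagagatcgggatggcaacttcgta
InR, intronic, 598 bp upstream (chr3R:21590689-21590889, minus strand): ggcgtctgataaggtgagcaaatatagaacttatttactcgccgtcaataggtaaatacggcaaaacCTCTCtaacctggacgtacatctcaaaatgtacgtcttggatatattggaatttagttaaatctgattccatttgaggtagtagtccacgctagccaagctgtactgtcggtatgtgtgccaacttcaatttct

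Over the full windows of 100 bp on each side, CGATA was present at 7 of the 17 conservative-list summits of these genes (41.2%), against 44.3% of all 4541 promoter summits and 19.7% of the 5942 other summits. These 7 comprised each of the promoter summits, at Akt, Rheb, foxo and both at Tor, the summit of Pi3K92E and 1 distant summit of InR. Outside the conservative list, the window of the chico summit held it, while those of foxo at 487 bp and of InR at 82 bp upstream did not. Within the conservative list, the strongest summit of InR and all 5 intronic summits of foxo did not hold it. The ranked summit of InR at 21613061, which this list lacks, was not searched.

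Several motifs of core promoters were searched on both strands in the same windows. The DNA replication-related element TATCGATA, which contains CGATA, was at none of the 17, against 10.7% of promoter summits and 0.825% of others. The core of Motif 1, GGTCACAC, was at none, against 6.45% of promoter summits and 0.454% of others. The core of Motif 6, GGTATTTT, was also at none, against 4.45% and 2.17%. Of the 17 summits, 5 were promoter summits. The E-box CANNTG was at 10 of 17 (58.8%), against 59% of promoter summits and 58.1% of others, while its form CAGCTG was at none, against 11.2% and 5.18%. GAGAG was at 4 (23.5%), against 18.4% and 20.6%, and TATAAA at 6 (35.3%), against 37.4% and 38.2%. The FOXO element GTAAACA was at 1 of 17, an intronic summit of InR 2720 bp upstream of its nearest TSS, against 6.14% of promoter summits and 4.59% of others. This was the InR summit with a signal of 27.9, which no replicate listed at the threshold. A match describes letters in a window and is not evidence of a bound factor.

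The rest of the pathway was read from a list of 64 further genes in 12 roles, all of which were found in the annotation. Of these, 33 (51.6%) carried a promoter summit in the conservative list, against the 36.4% of all genes given above. A promoter summit was in all 3 replicates' lists for 26 of the 64, against 3984 of all 13968 genes. For 21 of the 64 it was in none of them, a share that was not counted over all genes. The strongest promoter summit per gene had a median signal of 581.1 over the 33, with a range from 121 to 3285, against 507.4 over all 5089 genes with one. Of the 19 with a divergent neighbour 12 (63.2%) carried a promoter summit, against 66% of all genes with such a neighbour. Of the 45 without one 21 (46.7%) did, against 25.3% of all such genes. At 6 of the 33 the strongest summit was nearer to the TSS of another gene.

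Of the 8 insulin-like peptide genes, which encode the secreted ligands, Ilp7 alone (12.5%) carried a promoter summit, with a signal of 167 that 1 replicate listed, while Ilp1 and Ilp2 had none in any replicate. Of the 3 genes of secreted proteins that bind these peptides, conv had a summit of 243.7, nearer to the start of Sps1, and one in all 3 replicates. ImpL2 had one of 121 and none in any replicate, and Sdr had none in the conservative list.

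Of 5 adaptors and regulators at the receptor, 3 carried a promoter summit. Among them, step (689) and Ptp61F (385), a tyrosine phosphatase, had the strongest promoter signals, and Lnk and drk had no promoter summit. Of the 5 further genes listed for the Pi3K branch 3 carried one. They were sgg, the glycogen synthase kinase, with 3192, melt with 1436, and Pi3K21B, the regulatory subunit of Pi3K92E, with 741, each in all 3 replicates. Pdk1, a kinase that activates Akt, and wdb, a phosphatase subunit, had none in the conservative list. Of the other classes of Pi3K, Pi3K59F had a summit of 610 and Pi3K68D none.

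None of the 3 genes of TOR complex 1, raptor, Lst8 and PRAS40, carried a promoter summit in the conservative list, and PRAS40 had one in 1 replicate. Of TOR complex 2, Sin1 had one with a signal of 1056 in all 3 replicates and rictor had none. Among regulators of the Tsc complex and Rheb, TBC1d7, the third subunit of that complex, had a signal of 2978 and Tctp 412, both in all 3 replicates, while chrb and scyl had none in the conservative list. TBC1d7 thus had a summit in every replicate where its partners Tsc1 and gig had none.

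Upstream of Tor on the amino acid side, 4 of 7 Rag and Ragulator genes carried a promoter summit. The strongest were Lamtor3, with 3137 at a summit nearer to the start of fws, and Lamtor5 with 682, while Lamtor1 and Lamtor2 had none. Of 10 GATOR and amino acid sensor genes 6 did, each in all 3 replicates, led by Sesn with 2819 and Wdr24 with 2361, and BHD and Nprl2 had none in the conservative list. In the energy branch 3 of 4 did, with SNF4Agamma at 760 and Lkb1 at 578, both parts of the AMPK system, and AMPKalpha had none in that list. Among outputs 7 of 11 did. REPTOR, a transcription factor that Tor restrains, had the highest signal of the 64 genes, 3285, and RpS6, the ribosomal protein that S6 kinase phosphorylates, had 581 at a summit nearer to bys. Maf1 and Myc had no promoter summit in the conservative list.

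**Figure D5:**
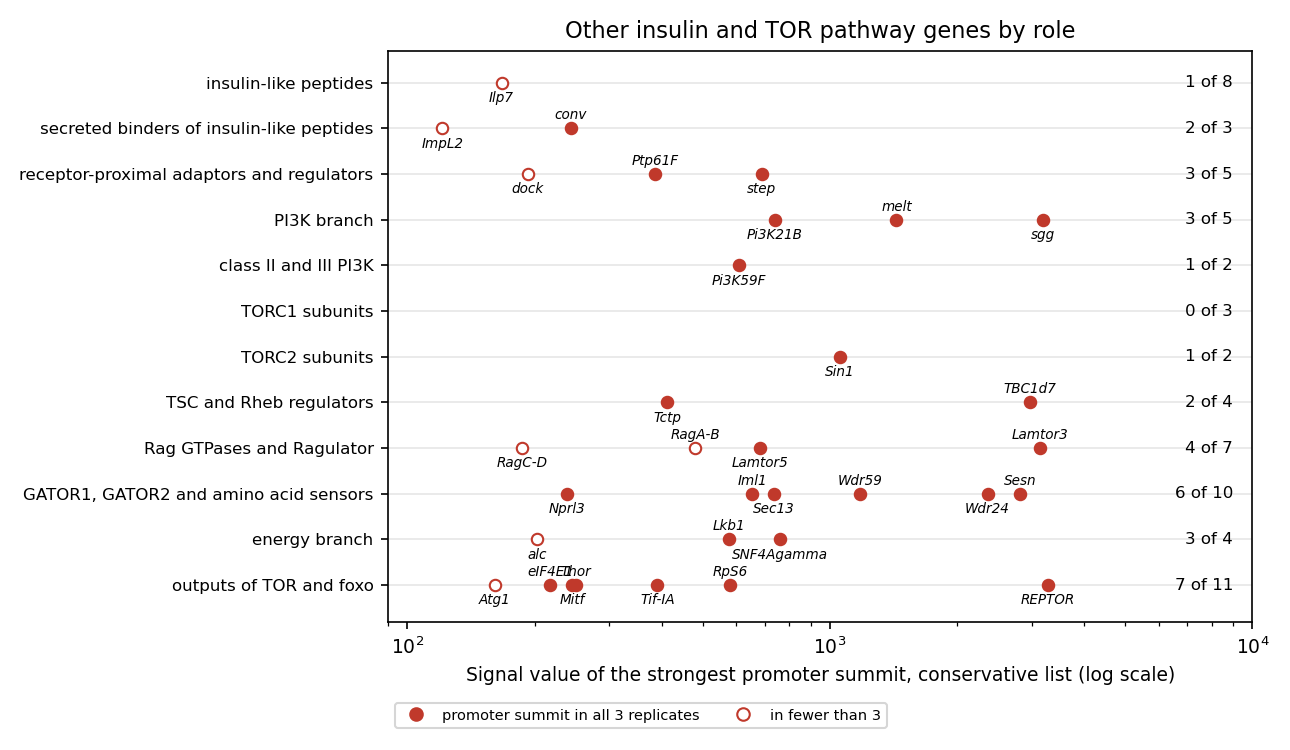
Signal value of the strongest promoter summit in the conservative list (x axis, log scale) for the further pathway genes, by role (y axis). Filled circles are genes with a promoter summit in all 3 replicates' lists, open circles genes with one in fewer, and the numbers at the right give genes with a summit of all genes in that role. Insulin-like peptides (1 of 8) and TOR complex 1 subunits (0 of 3) have few or no points, and sgg, Lamtor3, REPTOR, TBC1d7 and Sesn lie furthest to the right.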

How the data were processed

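The data were peak lists of 3 biological replicates, a single group. Per the labels, coordinates refer to dm6. The deposited lists give each peak a score, which is a scaled IDR (830 or more in the conservative list), a signal value, which is the enrichment as the authors' caller gave it, and, in the ranked lists, the −log10 of the global IDR. Per the deposited notes, the lists came from the replicates' alignments and a control. Neither aligner nor caller is named there.

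Each replicate had a ranked and a thresholded list, and so had each of the 3 pairs of replicates and a pool. The conservative list was taken as that of replicates 1 and 2, because 90.2% and 72% of the intervals copied into its ranked list were found in those replicates. Of its peaks, 99.8% were identical to peaks of the pooled ranked list, so its signal values are those of a pool, and replicate 3 is not independent of them.

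TSSs came from Ensembl release 115 and sequence from RefSeq. Tor was matched to the gene that Ensembl calls mTor, which RefSeq lists with the synonym Tor, and not to torso. Replicate values are those of the nearest summit within 150 bp. Likeness is the Euclidean distance of rank percentiles. Assignment of summits was tested on simulated data. Python 3.11.15 with numpy 2.4.6, pandas 2.3.3, pysam 0.24.0 and matplotlib 3.10.9 was used. No statistical test was run, since the design has no contrast.

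The members, the gene list and the motifs were chosen with earlier results of these data known. Named are the 9 members, genes nearest to their summits, up to 2 genes per role with the strongest promoter summit, up to 2 without one in alphabetical order, and the 3 genes most like the member with the strongest promoter summit. In the PI3K branch all 3 genes with a summit are named, and in TOR complex 1 all 3 genes, a choice made after their values were seen. One gene of the list is not reported here and was left out of its counts. Alternatives covered the window, the list, the IDR, the assignment rule and the annotation.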

Additional observations from a re-analysis of the deposited data

How the results depend on the processing

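The count of 4 members with a promoter summit ranged from 3 to 6 over the 15 alternatives, and that of 33 further pathway genes from 27 to 41. The number of all 13968 genes with one ranged from 3861 to 5963 over the same alternatives, against 5089. Akt and Tor were counted under each of them. With a window of 250 bp or by nearest gene alone, Tor was counted only through its weaker summit, 72 bp upstream. No replicate listed that summit at the threshold. The stronger Tor summit, 271 bp upstream, lay outside that window and nearer to Vha68-1. Rheb was lost where a summit went to its nearest gene alone, and foxo with a window of 250 bp. InR was counted in 9 of the 15, namely with a window of 1000 bp, by overlap of the peak interval, in the pooled list, without replicate 2, in replicates 1 and 3 alone, in the ranked list at an IDR of 0.05 or 0.001, and where the missing ranked peaks were added, a choice made after seeing the data. Pi3K92E was gained under the first 2 of these, and chico in the pooled list and in replicate 1. Leaving replicate 1 out of the selection of peaks gave 4 members and 32 pathway genes, and leaving out replicate 2 gave 5 and 36. The conservative list already leaves replicate 3 out of the selection. In each of these lists at least 99.5% of the peaks were identical to pooled peaks. Their positions and signals are thus not independent of the replicate left out. The 3 members with a gene body summit became 6 when the interval and not the summit was counted, which adds Akt, Rheb and Tor by construction. The same 3 were counted in every other alternative. With 50 bp on each side of the summit, GAGAG was at 2 of the 17 summits, and with 250 bp it was at 7, TATAAA at 12 and CAGCTG at 3, since longer windows hold more letters. In the pooled list, which is longer, the rank percentile rose for each member with a summit in the conservative list. That of foxo rose from 60.4 to 68.5 and that of Akt from 56.4 to 65.3. The rise of foxo alone exceeded the SD over its replicates, 5.61. That SD does not measure an effect of list length. The foxo summit had a signal of 365 in both lists, at rank 4151 of 10483 and 4189 of 13292. No paired analysis was possible because there is only 1 group.

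Depth is unknown, so a missing peak is not absence of binding. With 3 replicates, an SD is itself imprecise. The control was not analysed here.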
